A study of Homo sapiens with 3 samples.

Results

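The comparison described here sets a 5 min exposure to a nonthermal plasma jet against a 3 min exposure, miRNA by miRNA. It covers the mature miRNAs that averaged 20 counts or more across the series' 3 libraries, which were 231 of the 2588 listed. The cells were SK-MEL-2, an established human melanoma line, and small RNA was sequenced on Day 2. The groups were untreated cells, cells given 3 min of plasma and cells given 5 min of plasma, with 1 library each, so every ratio compares a pair of libraries and has no replicate check. A plasma jet is a stream of partly ionised gas that delivers reactive oxygen and nitrogen species at near room temperature. The 3 libraries include no plasma-free gas-flow group.

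The libraries held 1045482 counts (untreated), 966943 counts (3 min) and 615645 counts (5 min). After TMM scaling, 1 count was worth 1.05 CPM (the count scaled to library size) after 3 min and 1.61 CPM after 5 min, and the 3 counts that a value of 0 allows were worth 3.14 and 4.84 CPM. Ratios are given with exact 95% intervals from the split of the counts between libraries. These cover counting error only, since reads copied by PCR are not independent molecules. Of the melanocytic markers, miR-211-5p had 128, 97 and 65 counts in the order untreated, 3 min, 5 min, and miR-204-5p had 2608, 2535 and 1257. The rest of that marker list, miR-137, miR-506-3p, miR-508-3p, miR-509-3p and miR-514a-3p, had 0 in each library.

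A miRNA is cut from a hairpin precursor, and mostly 1 of the hairpin's arms (5p or 3p) is loaded into Argonaute, where it guides repression of mRNAs. Target choice rests largely on the seed, the bases near the 5′ end. miRNAs of a family mostly share a seed and so can act on overlapping targets. Hairpins close together on a chromosome are often cut from 1 transcript, so clustered miRNAs can share transcription and still differ in processing and decay.

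The miRNAs below carry the differences between the exposures, and 206 of the 231 had a mature sequence in the RefSeq table (GRCh38.p14). Capitals mark the seed, bases 2 to 8. The first set are entries that were at least 2-fold higher after 5 min than after 3 min, and several are rich in G and C.
miR-1246: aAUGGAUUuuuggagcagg
miR-1290: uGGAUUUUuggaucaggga
miR-7704: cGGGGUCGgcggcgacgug
miR-4497: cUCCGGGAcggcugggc
miR-663a: aGGCGGGGcgccgcgggaccgc
miR-1237-5p: cGGGGGCGgggccgaagcgcg
miR-589-5p: uGAGAACCacgucugcucugag

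The next sequences are those of the family whose members were all at least 1.5-fold higher, with the miRNA encoded beside them, and of a family whose members moved apart.
miR-192-5p: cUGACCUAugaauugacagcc
miR-215-5p: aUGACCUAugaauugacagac
miR-194-5p: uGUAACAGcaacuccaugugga
miR-222-3p: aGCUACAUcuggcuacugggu

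The following were at least 1.5-fold lower after 5 min.
miR-328-3p: cUGGCCCUcucugcccuuccgu
miR-128-3p: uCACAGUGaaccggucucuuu
miR-125b-1-3p: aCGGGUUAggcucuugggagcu
miR-301a-5p: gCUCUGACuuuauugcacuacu

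Most miRNAs had close levels after the longer and the shorter exposure. The median log2 ratio of 5 min over 3 min was 0.015, the quartiles were -0.23 and 0.28, and 50 of 231 miRNAs lay outside 1.5-fold. Of these 50, 30 miRNAs (13.0% of all) were higher after 5 min and 20 (8.66%) were lower. A 2-fold difference was reached by 15 on the higher side (6.49%) and by 2 on the lower side (0.866%). The counting interval excluded a ratio of 1 for 24 of the 30 and for 14 of the 20, and for all 15 and both of those past 2-fold. Counting intervals lay wholly above 1 for 58 miRNAs (25.1%) and wholly below 1 for 57 (24.7%), which counts many small differences of abundant miRNAs.

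The split between higher and lower depended on scaling. Size factors of DESeq2 over all listed miRNAs shifted the median log2 ratio by -0.135 and gave 21 higher and 35 lower at 1.5-fold, and 14 and 5 at 2-fold. TMM over all listed miRNAs shifted it by -0.112 and gave 23 and 31 at 1.5-fold, and 14 and 4 at 2-fold. The filter used the plasma libraries, so a miRNA could be kept because it was high after 5 min or after 3 min. Without the 5 min library, 4 of the 231 would have averaged fewer than 20 counts, namely miR-7704, miR-4497, miR-215-5p and miR-362-3p, and all 4 are among the 30 on the higher side. When miRNAs were kept by at least 20 counts in the untreated library instead, 237 were compared, of which 12 were 2-fold or more above and 5 were 2-fold or more below their 3 min level.

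Differences of 2-fold or more were all in miRNAs averaging fewer than 1000 counts, and most were in the scarcest tier. Of the 100 miRNAs averaging 20 to 100 counts, 24 passed 1.5-fold on the higher side and 12 on the lower. Among the 73 with means of 100 to 1000 counts these numbers were 6 and 4. At 2-fold, 10 were higher and 2 lower in the tier of 20 to 100 counts. In the tier of 100 to 1000 counts, 5 were higher, with miR-1246 farthest at log2 3.21, and 0 were lower. In the top tier of 58 miRNAs, at 1000 counts or more, 0 were 1.5-fold higher and 4 were 1.5-fold lower. The highest ratio in that tier was that of miR-29a-3p, at log2 0.34, and the lowest that of miR-328-3p, at log2 -0.90. miR-21-5p, an abundant miRNA with known oncogenic activity, took 34.1% of counts after 3 min (exact interval 33.99 to 34.18) and 33.97% after 5 min (33.85 to 34.08).

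**Figure D1:**
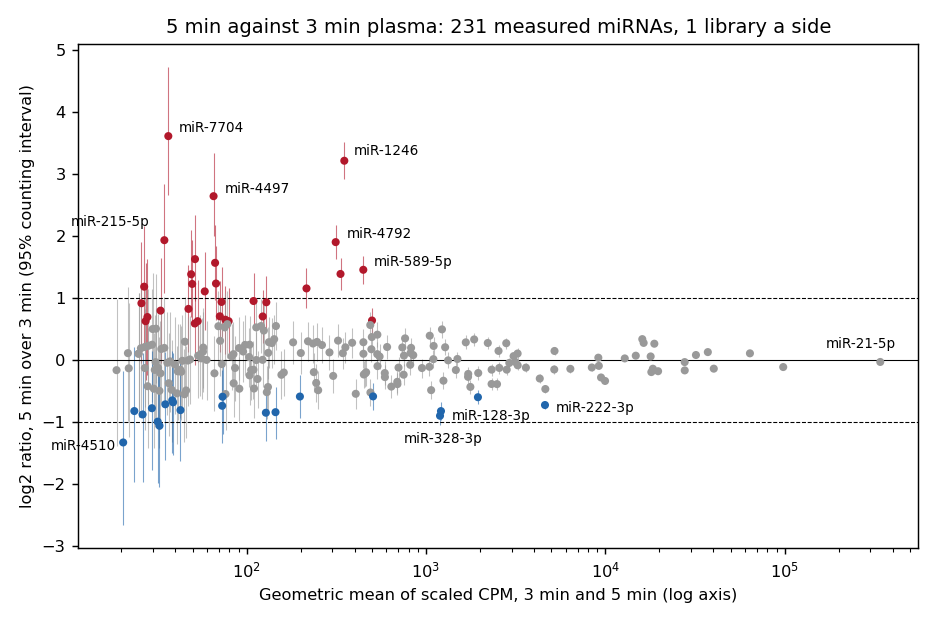
Each point is 1 of the 231 miRNAs, with its scaled CPM (geometric mean of the plasma libraries, log axis) on the x axis and the log2 ratio of 5 min over 3 min with its 95% counting interval on the y axis; red and blue mark at least 1.5-fold higher and lower, and dashed lines mark 2-fold. The wide spread lies at low CPM, while the abundant miRNAs, such as miR-21-5p, lie near 0.

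Some entries on the higher side have sequences that are close to, or lie within, other RNAs. miR-1246, which has been described as a fragment of the U2 spliceosomal RNA, was measured at 65.2 CPM in untreated cells, 115 CPM after 3 min and 1065 CPM after 5 min (68, 110 and 660 counts). It was 9.26-fold higher after 5 min than after 3 min (interval 7.56 to 11.4). Its hairpin is annotated on chromosome 2 at 176600980 to 176601052 (GRCh38, minus strand). The mature sequence printed above also occurs, base for base, in 19 of the 1900 small nuclear RNA transcripts of GENCODE 29, of which 7 are named as U2, so reads of U2 could not be told apart from reads of the miRNA.

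miR-1290, whose sequence shares the 12-base run UGGAUUUUUGGA with miR-1246, was at 24.9, 30.3 and 79.1 CPM in the same order, and 2.61-fold higher after 5 min than after 3 min (1.62 to 4.28). miR-663a was at 36.4, 43.9 and 103 CPM, a 2.35-fold difference (1.57 to 3.56). Its hairpin lies in an exon of the noncoding gene MIR663AHG on chromosome 20 (26208186 to 26208278). For all of these the 5 min library stood above the other libraries. The untreated and 3 min levels of miR-1290 and miR-663a did not differ beyond counting error, while miR-1246 was already higher after 3 min than in untreated cells, by log2 0.82 (0.371 to 1.278).

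miR-6087 was at 186, 206 and 539.2 CPM and was 2.62-fold higher after 5 min than after 3 min (2.19 to 3.14), and miR-7641 was at 112, 144.3 and 321 CPM and 2.23-fold higher (1.78 to 2.79). A list of entries known to overlap ribosomal, small nuclear, transfer or other noncoding RNAs had 8 of its 23 members measured. Of these, 5 were at least 1.5-fold higher and 1 lower, against 13.0% and 8.66% of all measured miRNAs, and the median log2 ratio was 1.195 against 0.015. The list was drawn up with earlier results of these data known, so its direction is not independent evidence. Its members did not all go 1 way, since miR-1260a, an entry close to a transfer RNA fragment, had 76, 43 and 17 counts and was 1.64-fold lower after 5 min, with an interval (0.915 to 3.06) that included 1.

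miR-7704 and miR-4497 were almost undetected in untreated cells. miR-7704 had 7, 10 and 79 counts (6.71, 10.5 and 127.5 CPM) and was 12.2-fold higher after 5 min than after 3 min (6.30 to 26.4). Its hairpin lies in an exon of HOXD1, a homeobox gene, on chromosome 2 at 176188843 to 176188901, on the plus strand, opposite an exon of the antisense gene HAGLR. miR-4497 was at 7.67, 26.1 and 163 CPM and 6.24-fold higher (3.99 to 10.1). Its hairpin, on chromosome 12 at 109833348 to 109833436, is on the strand opposite an exon of the ion channel gene TRPV4. Both were kept through their 5 min counts, as stated above.

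miR-4792 had 100, 155 and 375 counts, or 95.8, 162 and 605 CPM, and was 3.74-fold higher after 5 min than after 3 min (3.09 to 4.53). miR-3176, from an intron of CAPN15 on chromosome 16, had 4, 37 and 71 counts and was 2.96-fold higher (1.96 to 4.54). For these miRNAs the 3 min library lay between the untreated and the 5 min library. miR-3916 showed the same order, with 39, 89 and 110 counts and a ratio of 1.91 (1.43 to 2.55).

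miR-589-5p and miR-6124 differed between the exposures with hardly any gap between untreated and 3 min cells. miR-589-5p, from an intron of FBXL18 on chromosome 7 (5495819 to 5495917), was at 242, 270 and 739 CPM (253, 258 and 458 counts), a 2.74-fold difference between the exposures (2.35 to 3.21). miR-6124, from an intron of MICAL2, was at 29.7, 32.4 and 75.9 CPM, a 2.34-fold difference (1.46 to 3.81).

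For other miRNAs the 3 min library was the lowest of the series. miR-1237-5p, from an intron of RPS6KA4, was at 58.4, 29.3 and 90.4 CPM, and was 3.09-fold higher after 5 min than after 3 min (1.93 to 5.05). Its 5 min level was also above the untreated level, by log2 0.629 (0.08 to 1.177). miR-148a-3p, a miRNA linked to MITF, the master regulator of melanocytes, was at 41.2, 17.8 and 40.4 CPM and 2.27-fold higher (1.18 to 4.48). Its 5 min level therefore lay next to the untreated level. miR-6765-3p followed the same course at 61.3, 35.5 and 63.0 CPM, with a ratio of 1.77 (1.09 to 2.89).

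**Figure D2:**
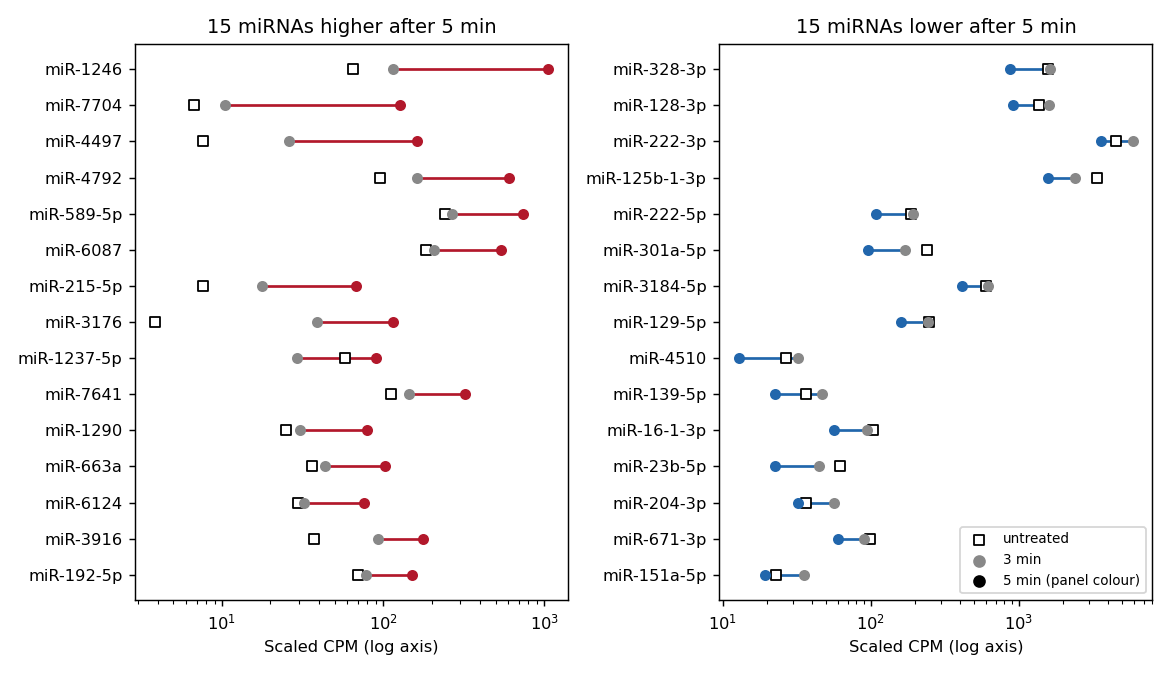
Scaled CPM (log axis) in the untreated library (open squares), after 3 min (grey) and after 5 min (red or blue) for the 15 miRNAs on each side whose counting interval lay farthest from 1 and that were at least 1.5-fold apart. For miR-1246 and miR-7704 the 5 min value stands far to the right of the other values, while miR-1237-5p has its lowest value after 3 min and miR-222-3p its highest.

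The family of miR-192-5p and miR-215-5p was the only 1 of 24 families with at least 2 measured members in which every measured member was at least 1.5-fold higher after 5 min. These miRNAs are known targets of p53 and restrain the cell cycle. miR-192-5p was at 69.9, 78.4 and 151.8 CPM (73, 75 and 94 counts) and miR-215-5p at 7.67, 17.8 and 67.8 CPM (8, 17 and 42 counts). The ratios of 5 min over 3 min were 1.94 for miR-192-5p (1.41 to 2.66) and 3.81 for miR-215-5p (2.13 to 7.15). The mature sequences share an 18-base run, UGACCUAUGAAUUGACAG, so reads could be assigned to either, and the summed family gives a ratio of 2.28 (1.74 to 3.01). The family had 2 measured members only because miR-215-5p passed the filter through its 5 min count, so its direction was partly set by the filter.

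miR-194-5p, which is encoded beside both, was at 32.6, 39.7 and 85.6 CPM and was 2.15-fold higher after 5 min (1.39 to 3.36). MIR192 and MIR194-2 lie together on chromosome 11 (64891137 to 64891439) in exons of MIR194-2HG. MIR215 and MIR194-1 lie together on chromosome 1 (220117853 to 220118241), opposite an intron of IARS2. The ratio of miR-194-5p was 1.11 times that of miR-192-5p (0.644 to 1.93), so those cluster mates did not differ beyond counting error. miR-194-5p cannot be assigned to 1 locus, since both hairpins give the same mature sequence. In these clusters all measured members were at least 1.5-fold higher, which held for no other of the 29 clusters with at least 2 measured members. The cluster of MIR215 and MIR194-1 likewise has 2 measured members only through the 5 min count of miR-215-5p.

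The p53-linked list, which holds these miRNAs, had 6 of 9 members measured, of which 3 were at least 1.5-fold higher and 0 lower, against 13.0% and 8.66% of all measured miRNAs. The remaining members were miR-34c-5p, a direct p53 target with 59, 95 and 90 counts and a ratio of 1.46 (1.08 to 1.97), miR-107 at 1.14 (0.805 to 1.62) and miR-143-3p at log2 -0.25. The list was chosen with earlier results known, and its count rests on the miR-192, miR-194 and miR-215 values above.

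On the lower side, abundant miRNAs took part. miR-328-3p, from a hairpin on chromosome 16 (67202321 to 67202395) opposite an intron of ELMO3, was at 1576, 1632 and 877 CPM, 1.86-fold lower after 5 min than after 3 min (1.69 to 2.06). miR-128-3p, a miRNA enriched in brain, was at 1383, 1610 and 910.5 CPM, 1.77-fold lower (1.61 to 1.95). It comes from introns of R3HDM1 (chromosome 2) and ARPP21 (chromosome 3). In both cases the 5 min library was below the other libraries.

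miR-125b-1-3p and miR-301a-5p stepped down with exposure. miR-125b-1-3p was at 3382, 2394 and 1582 CPM and was 1.51-fold lower after 5 min than after 3 min (1.40 to 1.63). miR-301a-5p, from an intron of SKA2, was at 239, 171.5 and 95.3 CPM and 1.80-fold lower (1.33 to 2.47). miR-129-5p had 257, 232 and 100 counts and was 1.5-fold lower (1.18 to 1.92).

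The miRNAs past 2-fold lower were scarce. miR-4510 had 28, 31 and 8 counts, a 2.51-fold difference between the exposures with a wide interval (1.13 to 6.32). miR-139-5p, from an intron of PDE2A, had 38, 45 and 14 counts and was 2.08-fold lower (1.12 to 4.11). miR-3184-5p had 627, 593 and 256 counts and was 1.5-fold lower (1.29 to 1.74), but its hairpin lies opposite that of miR-423 and the use of strand in counting is not given, so reads of the partners cannot be told apart.

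miR-221-3p and miR-222-3p, encoded side by side in an intron of MIR222HG on chromosome X (MIR221 at 45746157 to 45746266, MIR222 at 45747015 to 45747124), share a seed and repress the cell-cycle inhibitor p27. They diverged between the exposures. miR-221-3p was at 22160, 31090 and 32900 CPM, while miR-222-3p was at 4539, 5916 and 3582 CPM. After 5 min miR-221-3p was 1.06 times its 3 min level (1.04 to 1.08), a direction that turned to log2 -0.054 with DESeq2 size factors over all listed miRNAs and to log2 -0.03 with TMM over them. miR-222-3p was 1.65-fold lower under the main scaling (1.57 to 1.74).

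The ratio of miR-221-3p was 1.75 times that of miR-222-3p (1.66 to 1.84), a value that does not depend on scaling. Both arms of MIR222 were lower, since miR-222-5p was at 187, 193.4 and 108 CPM and 1.79-fold lower (1.35 to 2.40). The passenger arm miR-221-5p had 673, 710 and 342 counts and was 1.35-fold lower (1.18 to 1.53). The level of miR-222-3p thus stood above the untreated level after 3 min and below it after 5 min.

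**Figure D3:**
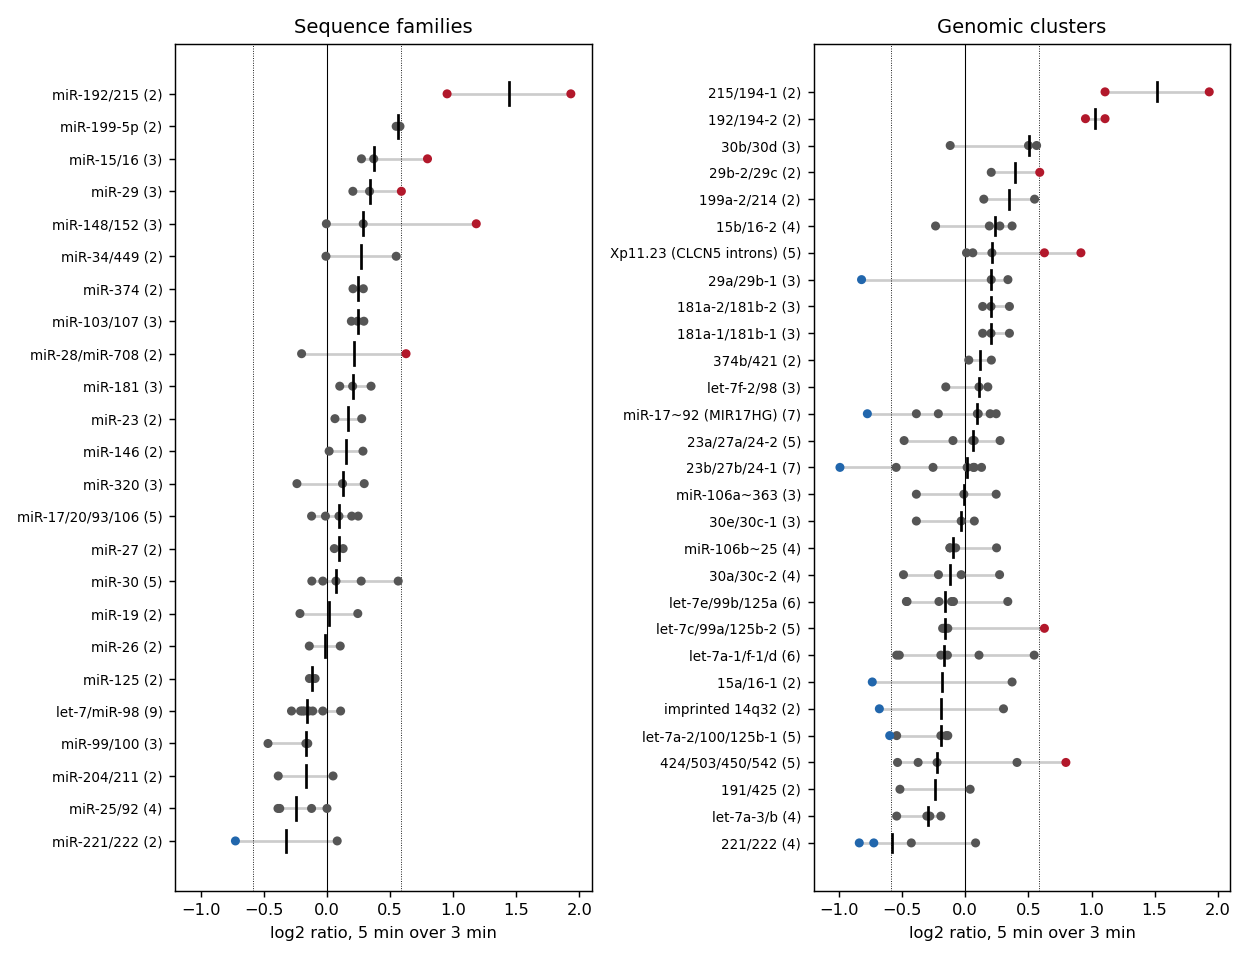
Log2 ratios of 5 min over 3 min for the measured members (points; red and blue mark at least 1.5-fold) of 24 sequence families and 29 genomic clusters, with the number measured in parentheses, medians as vertical bars and dotted lines at 1.5-fold. Most families sit between the dotted lines, miR-192-5p with miR-215-5p and their clusters lie wholly to the right, and miR-221-3p with miR-222-3p spans from -0.72 to 0.08; points within about 0.13 right of 0 change sign under scaling over all listed miRNAs.

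All measured members lay within 1.5-fold in 18 of the 24 families, which hold 70 measured miRNAs. Most miRNAs lay within 1.5-fold whatever their family, since 13.0% of all 231 were at least 1.5-fold higher and 8.66% lower. Whether members of a family were closer to each other than unrelated miRNAs was not tested. The most and the least favoured members differed beyond counting error in 11 families, and by at least 2-fold in 1, the miR-148a-3p family. There miR-148a-3p differed from miR-148b-3p, whose 3 min and 5 min levels were 1329 and 1325 CPM, by a factor of 2.28 (1.17 to 4.52). miR-152-3p was in between at 1.22 (1.05 to 1.42).

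The let-7 family, whose members restrain RAS and other growth genes, held 242419 counts after 3 min and 150014 after 5 min. Its summed ratio was 0.956 (0.949 to 0.962). Of 9 members, 8 were lower after 5 min by 1.02-fold to 1.21-fold, with let-7b-5p at the far end. let-7f-5p was 1.08 times its 3 min level (1.07 to 1.09), but log2 -0.027 and log2 -0.004 under DESeq2 and TMM scaling over all listed miRNAs. let-7f-5p and let-7b-5p differed by a factor of 1.31 (1.26 to 1.36) whatever the scaling. Members differ from each other by few bases, so reads may have been shared among them.

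All 3 measured members of the miR-29 family, which represses collagens and DNA methyltransferases, lay above their 3 min level after 5 min under each scaling. miR-29a-3p was at 11170, 14280 and 18060 CPM, a ratio of 1.26 (1.23 to 1.30), while the ratios of miR-29b-3p and miR-29c-3p were 1.15 (0.970 to 1.37) and 1.51 (0.943 to 2.40), both with intervals that include 1. In the miR-15/16 family, which acts on cyclins and BCL2, the summed ratio was 1.31 (1.16 to 1.49). miR-16-5p was at 400.5, 438 and 567 CPM, a ratio of 1.29 (1.12 to 1.49), and miR-424-5p, with 51, 24 and 27 counts, had 1.74 (0.965 to 3.15).

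miR-30b-5p and miR-30d-5p, which lie in 1 cluster and 1 family, differed. miR-30b-5p had 386, 384 and 368 counts, 1.48-fold higher after 5 min than after 3 min (1.28 to 1.71), and miR-30d-5p had 8799, 8372 and 4994 counts, 1.09-fold lower (1.05 to 1.13). The difference was a factor of 1.61 (1.38 to 1.87). miR-199a-5p and miR-199b-5p, of near-identical sequence, had ratios of 1.46 (1.12 to 1.92) and 1.49 (1.03 to 2.17).

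Among clusters, all measured members lay within 1.5-fold in 16 of 29, and the extremes differed beyond counting error in 18. Whether members of a cluster were closer to each other than unrelated miRNAs was likewise not tested. Clusters hold arms as well as family members, and several share a miRNA. In the miR-17~92 cluster, a proliferation-linked transcript, 4 of 7 measured members had positive and 3 negative log2 ratios, and the median of 0.096 became -0.039 with DESeq2 size factors over all listed miRNAs. The most abundant, miR-92a-3p, was at 2843 and 2175 CPM after 3 and 5 min, 1.31-fold lower (1.22 to 1.40), and the summed cluster had a ratio of 0.879 (0.835 to 0.924). In the X-linked cluster within introns of CLCN5, 5 of 16 listed miRNAs were measured. Of these, 2 were at least 1.5-fold higher, against 13.0% of all measured miRNAs. The 2 were miR-532-3p with 57, 61 and 61 counts, a ratio of 1.54 (1.07 to 2.24), and miR-362-3p with 21, 18 and 22 counts, a ratio of 1.89 (0.966 to 3.73), which was kept through its 5 min count.

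The clusters miR-23a/27a/24-2 and miR-23b/27b/24-1, which encode near-identical miRNAs on chromosomes 19 and 9, had summed ratios of 1.04 (1.02 to 1.06) and 1.08 (1.06 to 1.09), but their medians turned negative under scaling over all listed miRNAs. In the imprinted cluster of chromosome 14, 2 of 87 listed miRNAs were measured, and they lay on opposite sides of 1 with intervals that included it. miR-337-3p had 32, 47 and 19 counts and was 1.60-fold lower (0.922 to 2.89). miR-539-3p had 24, 189 and 151 counts and a ratio of 1.23 (0.989 to 1.54). The summed cluster had 1.36 (1.15 to 1.62), but this sum includes the listed miRNAs under the filter, such as miR-381-3p with 9, 5 and 22 counts. The sum is therefore not a value of the measured members alone.

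Arms of 1 hairpin come from the same precursor, and their ratio needs no scaling between libraries. Both arms were measured in 58 hairpin pairings. The arm with fewer untreated counts was lower relative to its partner after 5 min in 30 and higher in 28, so neither direction prevailed. The interval of the difference excluded 1 for 19 pairings, with the scarcer arm lower in 12 and higher in 7. Of the 19, 6 were at least 1.5-fold apart.

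MIR140, in an intron of WWP2, gave a precise arm difference. miR-140-5p was at 4760, 4773 and 3884 CPM and miR-140-3p at 16330, 17110 and 20540 CPM. The 5p share of both arms was 22.6% in untreated cells, 21.8% after 3 min and 15.9% after 5 min, and miR-140-5p was 1.48-fold lower relative to its partner (1.40 to 1.56). miR-27a-5p behaved alike, with shares of 7.49%, 6.72% and 4.71%, a 1.46-fold difference (1.31 to 1.62).

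The scarcer arm was relatively lower in 4 of these 6 pairings. miR-16-1-3p, with 108, 90 and 35 counts, was 2.15-fold lower relative to miR-16-5p (1.40 to 3.37), although miR-16-5p also comes from MIR16-2. miR-23b-5p, with 65, 43 and 14 counts, was 2.08-fold lower relative to miR-23b-3p (1.11 to 4.13). The differences for miR-9-3p and miR-27b-5p were 1.64-fold (1.22 to 2.21) and 1.60-fold (1.08 to 2.40).

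MIR335, in an intron of MEST, went the other way. miR-335-5p had 90, 92 and 97 counts and miR-335-3p 651, 620 and 332, so the 5p share was 12.2%, 12.9% and 22.6%, and the ratio of miR-335-5p was 1.97 times that of its partner (1.42 to 2.73). miR-3065-5p had shares of 27.2%, 32.04% and 50.4%, a factor of 2.16 (1.30 to 3.58), but MIR3065 lies opposite MIR338, so with strand use not given reads of the partners cannot be told apart.

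**Figure D4:**
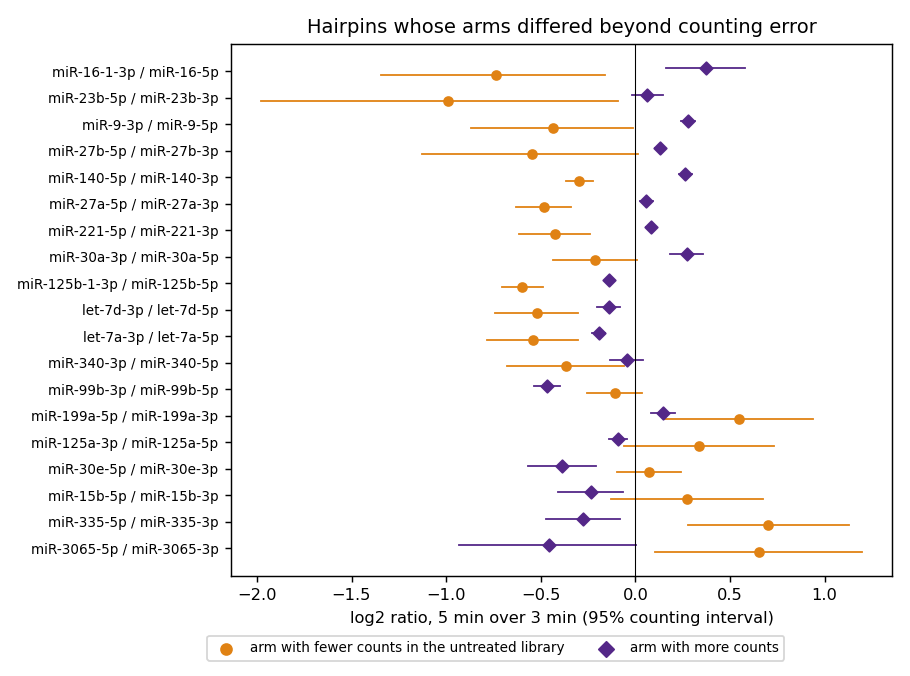
Log2 ratio of 5 min over 3 min with 95% counting intervals for both arms of the 19 hairpin pairings whose arms differed beyond counting error; circles are the arm with fewer untreated counts, diamonds its partner. Circles lie left of the diamonds in 12 pairings, such as miR-140, and right of them in 7, such as miR-335.

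Late-numbered miRNAs, which were added to catalogues from deep sequencing and include many entries of doubtful status, made up much of the higher side. Of 37 measured entries numbered 1000 or more, 15 were at least 1.5-fold higher and 3 lower, with a median log2 ratio of 0.20. The rest of the 231 miRNAs formed a far larger group, of which 15 were higher and 17 lower, with a median of -0.006. Among all 231, the shares were 13.0% higher and 8.66% lower. Late-numbered entries were also scarcer, with a median of 48.3 mean counts against 218. The part of depth in the difference between the groups was not tested. Of the late-numbered entries on the higher side, miR-7704 and miR-4497 were kept through their 5 min counts, so the filter partly set that count.

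Base composition did not change steadily with the ratio. Among the 206 miRNAs with a sequence, the 12 that were at least 2-fold higher had a median GC content of 57.2% and a median length of 20.5 bases, against 47.6% and 22 bases for all 206. The 26 that were at least 1.5-fold higher did not share this, with medians of 45.8% and 22 bases, and the 19 that were at least 1.5-fold lower had a median GC content of 52.2%. Of the 29 miRNAs with at least 60% GC, 9 were at least 1.5-fold higher and 4 lower, although their median log2 ratio was -0.032. Of the 177 below 60%, 17 were higher and 15 lower. These split into 7 higher and 1 lower under 40% GC, 9 and 6 from 40 to 50%, and 1 and 8 from 50 to 60%. The GC-rich miRNAs were scarcer, and the part of depth in these counts was not tested. Among the 12 above, miR-7704, miR-4497 and miR-215-5p were kept through their 5 min counts, so the filter partly set those medians. miR-7704 and miR-4497 are also among the 9 GC-rich miRNAs on the higher side.

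Lists tied to plasma chemistry and to the lineage are set against the 13.0% higher and 8.66% lower among all measured miRNAs. Of a redox-linked list, 5 of 8 were measured and 0 were 1.5-fold higher or lower, with a median log2 ratio of -0.12. miR-7-5p, the member farthest from 1, was at 11190 CPM after 3 min and 8861 CPM after 5 min, 1.26-fold lower (1.22 to 1.31). Of the melanocyte and melanoma list, 8 of 11 were measured, of which 1, miR-148a-3p, was 1.5-fold higher and 1, miR-222-3p, lower, and the median was 0.064, so these shares were near those of all miRNAs. miR-204-5p, a regulator of pigmentation made from TRPM3, was 1.31-fold lower (1.22 to 1.40), and miR-211-5p had a ratio of 1.04 (0.744 to 1.43).

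Marker miRNAs of epithelial, muscle and blood cells were scarce, while those of fibroblasts and neural cells included abundant miRNAs. The epithelial list summed to 24 counts after 3 min and 40 after 5 min, a ratio of 2.57 (1.51 to 4.46), with miR-205-5p at 0. That sum is mostly miR-200b-3p, with 13 and 20 counts, and miR-200c-3p, with 8 and 17. The members miR-200a-3p, miR-141-3p and miR-429 had 2 counts or fewer in each. No member of the epithelial or muscle list passed the filter, and all listed miRNAs under it had a summed ratio of 1.61 (1.51 to 1.72). The muscle list had 20 and 30 counts, a ratio of 2.32 (1.27 to 4.30), with miR-133a-3p, miR-133b and miR-206 at 0 in both. That ratio rests on miR-1-3p, which had 3 and 15 counts, while miR-499a-5p had 14 and 13 and miR-208a-3p had 3 and 2. Blood markers had 21 and 14 counts, a ratio of 1.03 (0.484 to 2.12), with miR-223-3p at 0. The liver marker miR-122-5p had 117 and 76 counts, a ratio of 1.003 (0.741 to 1.35). Endothelial and fibroblast lists had summed ratios of 1.10 and 1.11. The neural list, with miR-124-3p at 0, had 4 measured members and a summed ratio of 1.14, which is mostly miR-9-5p at 14850 and 17980 CPM. Its other 3 measured members were lower beyond counting error, 2 of them at least 1.5-fold (miR-128-3p and miR-129-5p, given above), and the median log2 ratio of the list was -0.51. Among all 231 measured miRNAs, 24.7% were lower beyond counting error and 8.66% were at least 1.5-fold lower. The part of the epithelial and muscle counts in the ratios above was not tested.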

How the data were processed

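Small RNA was sequenced from 3 libraries built with an NEBNext kit from Trizol RNA, per the labels. What was deposited is a whole-number count of reads for each mature miRNA. Bowtie2, bedtools and edgeR were used, per the submitters' processing notes. Items not given in the sources used here include versions, genome build, miRNA annotation, trimming, strand use and multi-mapping.

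miRNAs averaging 20 counts or more were kept. TMM factors (edgeR 4.0.16, R 4.3.3) over these were 1.000, 0.991 and 1.009. Ratios of scaled CPM have exact (Clopper-Pearson) 95% intervals, and ratios of ratios exact conditional intervals (scipy 1.17.1, Python 3.11.15). With 1 library per group no test was made. The steps were tested on simulated data. Sequences and hairpin positions came from RefSeq (GRCh38.p14) and overlaps from GENCODE 29. Families and clusters were hand lists. Not all listed family members share a seed, since those of miR-103b and miR-374c-5p differ from the seeds of miR-103a-3p and miR-374b-5p. Summed ratios of families and clusters include listed members under the filter.

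Members, lists and folds were chosen with earlier results of these data known. Named were the 15 higher and 15 lower miRNAs with the interval farthest from 1 at 1.5-fold or more, the 10 most abundant, and list, family, cluster and arm members by the same bound. A few others were named after their values were seen. Alternatives covered scaling (library total, DESeq2 1.42.0) and the filter.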

Additional observations from a re-analysis of the deposited data

How the results depend on the processing

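No paired analysis was possible because each group had 1 library. Under the 6 other scalings, 41 to 50 of the 50 miRNAs at least 1.5-fold apart stayed past 1.5-fold. All 50 kept their direction, but this was fixed in advance. A scaling moves all log2 ratios alike, and the largest shift was -0.135, too small to turn a 1.5-fold difference. With DESeq2 size factors over all listed miRNAs, 35 were at least 1.5-fold lower and 5 at least 2-fold lower, the median log2 ratio was -0.12, and family and cluster medians turned negative for miR-17~92 (-0.039), let-7f-2/98 (-0.027), 23a/27a/24-2 (-0.076), 23b/27b/24-1 (-0.12), the miR-17 family (-0.039), miR-30 (-0.063) and miR-320 (-0.012). With TMM over all listed miRNAs, 31 and 4 were lower, the median was -0.097, and the medians were -0.016, -0.004, -0.053, -0.097, -0.016 and -0.04 for the same groups without miR-320. With library totals the median of the cluster of miR-106a and miR-363 was 0.014. Without a filter beyond 1 count in each plasma library, 202 were at least 1.5-fold higher and 62 lower, 114 and 25 at 2-fold, with a median of 0.212. Equal counts in the plasma libraries already give a scaled ratio of 1.54, as for miR-708-5p with 41 and 41. A miRNA with equal low counts was thus counted as 1.5-fold higher, and miRNAs with no count in either plasma library were left out. With a mean of at least 100 counts (131 miRNAs), 6 and 8 passed 1.5-fold and 5 and 0 passed 2-fold. With the filter on the plasma libraries alone, 1 was 2-fold lower and the miR-17~92 median was -0.058. With at least 20 untreated counts, a filter chosen after seeing the data, 5 were 2-fold lower. Except where fewer miRNAs were compared, the cause was not tested. The 5 min library was the shallowest, and miRNAs under the filter cannot be compared singly.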

Other observations

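The 2357 listed miRNAs under the filter, 1623 of which had no count in any library, together held 1762 counts in untreated cells, 1742 after 3 min and 1819 after 5 min. Their summed level was 1.61 times higher after 5 min than after 3 min (exact 95% counting interval 1.51 to 1.72), and 1.08 times higher after 3 min than in untreated cells (1.01 to 1.15). Over all listed miRNAs, 663 had a count after 3 min and 708 after 5 min, although the 5 min library had fewer reads. Just inside the filter were miR-6514-3p (25, 22 and 13 counts in the order untreated, 3 min, 5 min), miR-362-3p and miR-1827, and just outside it miR-30c-1-3p (24, 24 and 11 counts), miR-98-3p and miR-3907. The muscle miRNA miR-1-3p, also under the filter, had 0, 3 and 15 counts.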
